A study of Saccharomyces cerevisiae with 4 samples.

Results

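Transcripts of 33 chaperone and heat shock protein genes of budding yeast, Saccharomyces cerevisiae, were examined for their share among RNA bound to Mex67, out of 5539 genes with a probe on the arrays. The rule of choice used their symbols in the array's probe annotation and not their ratios, though earlier results of these data were known. The genes cover the Hsp70, Hsp90, Hsp60, Hsp100 and small heat shock proteins with their partner proteins. All 33 had 2 probes each. Each of 4 two-colour arrays carried RNA that had come down with a tagged Mex67 (zzMex67) beside total RNA, so that every spot gave a ratio of both RNA sources. The 4 arrays form 1 group. Channel 2 held the precipitated RNA on arrays 1 and 2, and channel 1 held it on the other two, arrays 3 and 4. The labels give no strain, growth condition or heat treatment, no arrays of an untagged or mock precipitation were analysed here, and separate cultures are not mentioned, so that p-values cover the spread between these 4 arrays alone, which may be technical.

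Mex67 is the receptor that carries messenger RNA through the nuclear pores. Heat shock proteins help other proteins to fold, keep them from clumping or pull them out of aggregates. The Hsp70 proteins bind short hydrophobic stretches of unfolded proteins in a cycle driven by ATP, J-domain proteins (Hsp40) start that cycle, and exchange factors end it. Hsp90 acts later, on proteins such as kinases, together with its own set of cochaperones. Many of these genes are made at all times, and others are switched on by heat through the transcription factors Hsf1, Msn2 and Msn4.

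The values are log2 ratios minus the median of each array over the genes with a ratio on at least 3 arrays, called centred below. A value of 0 is thus the middle of those genes, and the values say nothing of how much RNA was precipitated in all. All genes with a ratio had lower centred medians, of -1.51, -0.26, -0.11 and -0.19 on arrays 1 to 4. The labels speak of a level of Mex67 binding without stating which RNA was divided by which, so precipitated over total RNA is only the likely direction. If the ratio ran the other way, every "above" below would read "below". All 4 columns were read as turned the same way, although the channels were swapped, because arrays 3 and 4 correlated above 0 with array 2 (Pearson's r = 0.756 over 646 features and 0.824 over 742 features, across genes and unnamed probes, which are not independent replicates). Dye effects of single spots can also correlate in this way if the columns were left as scanned, and were not separated from this reading. Array 1 stood apart, with r = 0.127 to 0.239 against the other arrays, and results that rest on it are given with and without it.

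Most chaperone genes had no ratio, or had one on array 2 only. Of the 33 genes, 15 (45.5%) had a ratio on at least 1 array and 5 (15.2%) on at least 3, against 31.6% and 8.99% of all genes. The 5 genes that could be tested were SSA1, SSA2, MDJ1, HSC82 and CPR1. Another 2, CPR6 and HSP78, had ratios on 2 arrays, and 8 had a ratio on array 2 alone. Array 2 held ratios for all 15, arrays 3 and 4 for 6 each and array 1 for SSA1 and CPR1. The 18 without a ratio were SSA3, SSA4, SSB1, SSB2, SSZ1, KAR2, SSE2, SIS1, YDJ1, ZUO1, HSP82, STI1, FES1, HSP60, HSP10, HSP12, HSP30 and HSP31. The rule by which a probe lacks a ratio is not given in the sources used here, so a missing ratio says nothing of Mex67 binding.

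Chaperone genes with and without a ratio were set beside the share of measured probes around them. The share of probes with a ratio on array 2 differed between blocks of 400 consecutive probe numbers, from 1.25% to 80.25%. The 15 genes with a ratio lay in blocks where the median share was 48.3% (range 11.5% to 80.25%), and the 18 without lay in blocks with a median of 10.8% (2.50% to 24.8%). The 2 ranges overlap between 11.5% and 24.8%. Each share counts the gene's own probes. All 15 had a ratio on array 2, and fuller blocks hold more such genes whatever their function. The comparison was not made over all genes, so it shows nothing particular to chaperone genes. SSA2, at 11.5%, was the gene with a ratio in the sparsest block, and MDJ1 and CPR6 lay in the fullest one. The part of probe position in which chaperone transcripts were measured was not tested.

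**Figure D1:**
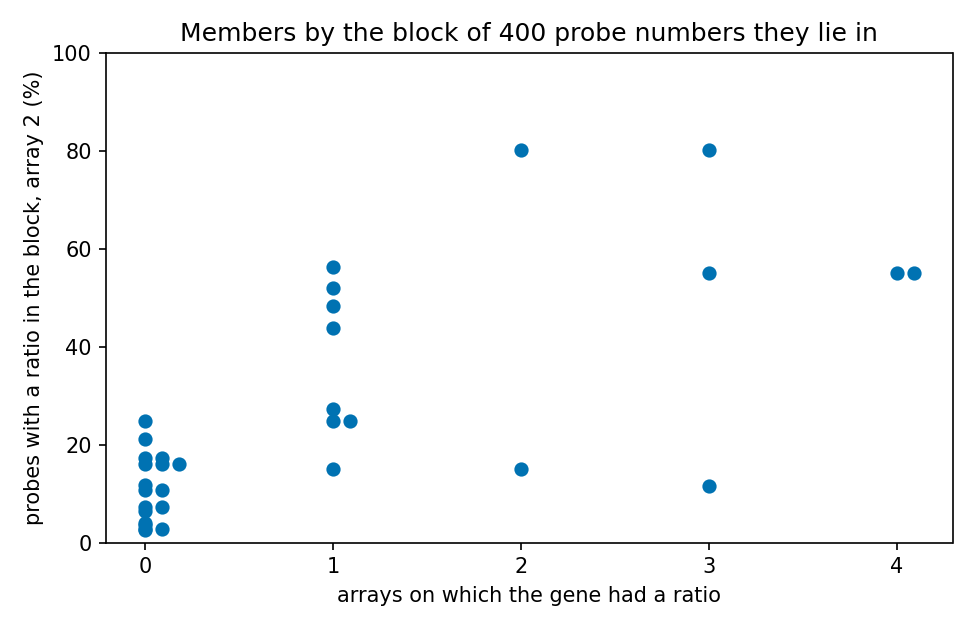
Each point is 1 of the 33 chaperone genes. The horizontal axis is the number of arrays on which the gene had a ratio (points at the same place are set side by side), and the vertical axis is the percentage of probes with a ratio on array 2 in the gene's block of 400 probe numbers. The 18 genes at 0 arrays all lie at or under 24.8%, while the 15 others reach 80.25%.

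In the limma test across all 596 features (498 named genes and 98 unnamed probes), 1 of the 5 chaperone genes passed, SSA2, which lay above the median, and 4 did not pass. Over all features 47.7% were called, 22.5% above and 25.2% below. With only 5 genes, 1 call shows no difference from these shares, and none was tested. Without array 1, CPR1 passed as well, which made 2 chaperone genes, where 28.2% of all features were called above the median. The median of the 5 means was a centred log2 ratio of -0.09, beside 0.00 over all features tested (quartiles -0.99 and 0.90). That median is the mean of CPR1, which includes a value of -6.41 on array 1. Without array 1 the 5 means were 2.99 (SSA2), 2.01 (CPR1), 0.21 (HSC82), 0.18 (SSA1) and -0.33 (MDJ1). The 5 genes passed the limit on missing values and do not stand for all 33.

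The cytosolic Hsp70 genes of the SSA family keep newly made and stress-damaged proteins soluble, and SSA2 is one of the members made without stress. As deposited, the log10 ratios of the first SSA2 probe were 1.07, -0.271 and 0.256 on arrays 2, 3 and 4, and those of the second were 1.58, -0.0951 and 0.692. Averaged over the probes and centred, SSA2 stood at 2.68 on array 2, 3.11 on array 3 and 3.19 on array 4, and it had no ratio on array 1. All of its values lay far above the median, under both channel assignments. It ranked 31st of 1424 genes on array 2, 16th of 556 on array 3 and 14th of 652 on array 4, counted from the top. Its mean was 2.99 ± 0.27 (SD, n = 3), 7.95-fold above the array median (limma, adjusted p = 0.00403), which placed it 12th of the 596 features. The call rests on the centring and on the columns being turned alike: without centring the mean was 1.79 ± 2.52, and with arrays 3 and 4 turned it was -1.21 ± 3.36 (SD, n = 3), and neither passed (limma, adjusted p = 0.727 and 0.995).

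The 2 SSA2 probes differed by 1.69 on array 2, 0.58 on array 3 and 1.45 on array 4, with the second probe higher each time. This was the widest gap of any chaperone gene, where the median gap over 20 pairs of probes was 0.47, close to the 0.45 of 1627 pairs over all genes. Tested apart, the probes had means of 2.37 ± 0.50 and 3.61 ± 0.27 (SD, n = 3), and both passed (limma, adjusted p = 0.00539 and 0.00324). The block of SSA2 was itself high: the median of its probes with a ratio lay at 1.01, 1.45 and 1.63 on arrays 2, 3 and 4 (46, 32 and 31 probes). Centred within blocks, SSA2 had a mean of 1.63 ± 0.06 (SD, n = 3), and its call held (limma, adjusted p = 0.00844; 18.0% of all features were called above the median in that fit).

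SSA1, the other SSA gene with ratios and, like SSA2, made without stress, lay near the median on 3 arrays. Its centred log2 ratios were 0.44, -0.31 and 0.40 on arrays 2, 3 and 4, beside -2.40 on array 1. Arrays 2 and 4 lay a little above 0, array 3 a little below, and array 1 far below. On arrays 2, 3 and 4 the ranks were 392 of 1424, 304 of 556 and 212 of 652. The probes of SSA1 differed by 0.04 to 0.57, so that both gave the low value of array 1. On that array the median subtracted rested on 100 genes, and all 468 genes with a ratio there had a centred median of -1.51 and a lower quartile of -2.32. The mean was -0.47 ± 1.33 (SD, n = 4) with a 95% interval of -1.78 to 0.85, and it did not pass (limma, adjusted p = 0.490). Without array 1 it was 0.18 ± 0.42 (SD, n = 3; adjusted p = 0.569).

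On each of the arrays with both genes, SSA2 lay above SSA1. The difference of the centred log2 ratios, SSA2 minus SSA1, was 2.24 on array 2, 3.41 on array 3 and 2.79 on array 4, with a mean of 2.81 ± 0.59 (SD, n = 3) or 7.04-fold. The lower SSA2 probe still exceeded the higher SSA1 probe by a mean of 2.03 ± 0.74 (SD, n = 3). This comparison was chosen after the values were seen. An exact sign-flip permutation test gave p = 0.25, two-sided, which is the smallest p that 3 arrays allow. Centred within blocks, the difference was 1.16 ± 0.41 (SD, n = 3), and with arrays 3 and 4 turned it was -1.32 ± 3.10 (SD, n = 3). SSA1 and SSA2 are close copies of each other, and how far each probe also bound the other transcript was not tested.

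**Figure D2:**
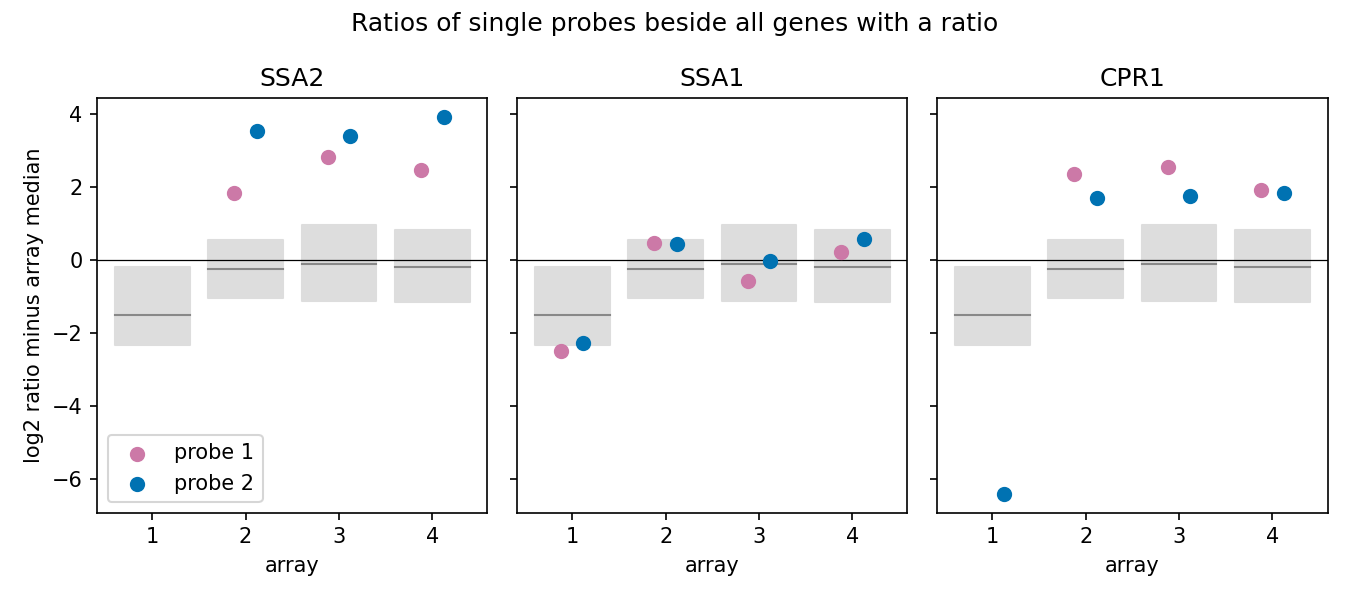
Centred log2 ratios of the first and second probe of SSA2, SSA1 and CPR1 on the 4 arrays. Grey boxes span the lower to the upper quartile of all genes with a ratio on that array, and the grey line is their median. The SSA2 probes lie above the box on arrays 2 to 4, SSA1 lies in it on those arrays, and CPR1 lies above it on arrays 2 to 4 and at -6.41 on array 1.

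The SSB genes could not be set against the SSA genes. SSB1 and SSB2 code for Hsp70 proteins that sit on translating ribosomes and bind new chains as they emerge, with SSZ1 and the J-domain protein ZUO1 as their partners. All 4 genes of this ribosome-bound system were without a ratio on any array, and so the planned difference between SSA and SSB has no value. Of the 4 SSA genes, the heat-induced SSA3 and SSA4 also had none. Genes with a ratio were 2 of 4 for SSA and 0 of 2 for SSB, beside 31.6% of all genes. Their blocks held ratios for 55% (SSA1), 11.5% (SSA2), 2.75% (SSB1) and 11.75% (SSB2) of probes on array 2. Because a missing ratio says nothing of Mex67 binding, these counts do not compare the families.

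Other Hsp70 and Hsp110 genes had single values. SSC1, the Hsp70 that draws proteins into the mitochondrial matrix, had a centred log2 ratio of 0.55 on array 2, from 1 probe. SSE1, an Hsp110 and the main exchange factor of the cytosolic Hsp70, stood at -1.25 on array 2, with its probes at -0.94 and -1.57. For all genes with a ratio on array 2 the quartiles were -1.04 and 0.53, so SSC1 lay just above the upper and SSE1 below the lower one. The ER Hsp70 gene KAR2 and the second Hsp110 gene SSE2 had no ratio.

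Among the J-domain genes only MDJ1, the partner of Ssc1 in the mitochondrial matrix, had ratios. Its centred log2 ratio was -0.65 on array 2, -0.08 on array 3 and -0.24 on array 4. All 3 lay slightly below the median. The mean was -0.33 ± 0.30 (SD, n = 3) with a 95% interval of -0.95 to 0.30, and it did not pass (limma, adjusted p = 0.307). Centred within blocks its mean was 0.23 ± 0.71 (SD, n = 3), so its side of the median depended on the centring. MDJ1 lay in the block with the most ratios, with 321 measured probes on array 2.

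HSC82, the Hsp90 gene made at all times, lay at the median. Its centred log2 ratio was -0.01 on array 2, 0.67 on array 3 and -0.04 on array 4, where 1 of its probes had a ratio. Array 3 was the high one. The mean was 0.21 ± 0.40 (SD, n = 3) with a 95% interval of -0.48 to 0.90, and it did not pass (limma, adjusted p = 0.537). The heat-induced Hsp90 gene HSP82 had no ratio, so the pair could not be compared.

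Of the Hsp90 cochaperones, AHA1, which speeds up the ATP cycle of Hsp90, stood at 0.71 on array 2 from 1 probe. CPR6, a cyclophilin that binds Hsp90, stood at 0.86 on array 2 and, from 1 probe, at -0.65 on array 3. These values lay on opposite sides of the median (limma with at least 2 arrays, adjusted p = 0.897). Centred within blocks, CPR6 stood at 0.94 on array 2 and 0.19 on array 3, so its side on array 3 depended on the centring. STI1, which links Hsp70 to Hsp90, and the Hsp70 exchange factor gene FES1 had no ratio.

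CPR1, the cytosolic cyclophilin (a peptidyl-prolyl isomerase and the target of cyclosporin A), had the widest spread. Its centred log2 ratio was 2.02 on array 2, 2.14 on array 3 and 1.88 on array 4, but -6.41 on array 1. Arrays 2 to 4 lay close together and far above the median, with ranks of 59 of 1424, 50 of 556 and 62 of 652. On array 1, where only its second probe had a ratio (deposited log10 ratio -2.45), it ranked 465 of 468 genes. The mean of the 4 arrays was -0.09 ± 4.21 (SD, n = 4) with a 95% interval of -4.07 to 3.89, and it did not pass (limma, adjusted p = 0.972). Without array 1 the mean was 2.01 ± 0.13 (SD, n = 3), and it passed (limma, adjusted p = 0.00156). In that fit 28.2% of all features were called above the median. The high values of CPR1 on arrays 2 to 4 rest on the centring and on the columns being turned alike. As deposited, the log10 ratios were 1.13, -0.473 and 0.0794 on arrays 2 to 4. With array 1 kept, the mean was -1.42 ± 4.99 without centring and -2.10 ± 3.44 with arrays 3 and 4 turned (SD, n = 4). Neither passed (limma, adjusted p = 0.754 and 0.995), but with array 1 kept the centred fit did not pass either. These fits therefore do not test the call made without array 1, which was not tested under these settings.

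For CPR1 array 1 minus the mean of the other arrays was -8.42, the widest departure among the 80 features with a ratio on all 4 arrays. For those features the difference had a median of -0.11 and quartiles of -2.02 and 1.23. For SSA1 it was -2.57, the 24th widest of the 80. The first CPR1 probe, which had no ratio on array 1, had a mean of 2.26 ± 0.31 (SD, n = 3; limma with probes kept apart, adjusted p = 0.00466; 25.4% of the probes were called above the median in that fit). The second probe, with the value of array 1, had -0.28 ± 4.09 (SD, n = 4) and did not pass (adjusted p = 0.891).

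The disaggregases and the small heat shock genes had ratios on 1 or 2 arrays each. HSP78, the Hsp100 protein of mitochondria, stood at -1.65 on array 2 and, from 1 probe, at -1.99 on array 4, low on both. Its deposited log10 ratios were 0.0256 and -1.08, so both low values rest on the centring and on the columns being turned alike. In a limma fit that admitted features with a ratio on at least 2 arrays, its mean was -1.82 ± 0.24 (SD, n = 2; 95% interval -2.88 to -0.76) and passed (adjusted p = 0.0369), where 15.9% of the 938 features were called below the median. Centred within blocks, HSP78 stood at -0.85 on array 2 and -1.94 on array 4, and its call was not tested with that centring. HSP104, which pulls proteins out of aggregates in the cytosol, stood at 0.19 on array 2, from 1 probe. HSP26 stood at -1.76 and HSP42 at -0.07 on array 2. Both are small heat shock proteins that bind aggregating proteins, and each value came from 1 probe. HSP26 was the lowest of the 8 genes measured on array 2 alone and ranked 1289 of 1424.

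Other stress-induced genes gave little. BTN2, which gathers misfolded proteins into deposits, stood at -0.43 on array 2, with its probes on either side of the median at -0.96 and 0.11. UBI4, the polyubiquitin gene, stood at -0.85. Over the 8 genes measured on array 2 alone, 3 lay above and 5 below, with a median of -0.25, where all 1424 genes with a ratio on that array had a median of -0.26. These single values have no replicate. Over features with ratios on arrays 2 to 4 the median SD between those arrays was 0.40 (quartiles 0.22 and 0.65, 566 features). The mitochondrial chaperonin genes HSP60 and HSP10, the membrane protein gene HSP30, the lipid-binding HSP12 and HSP31 had no ratio.

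**Figure D3:**
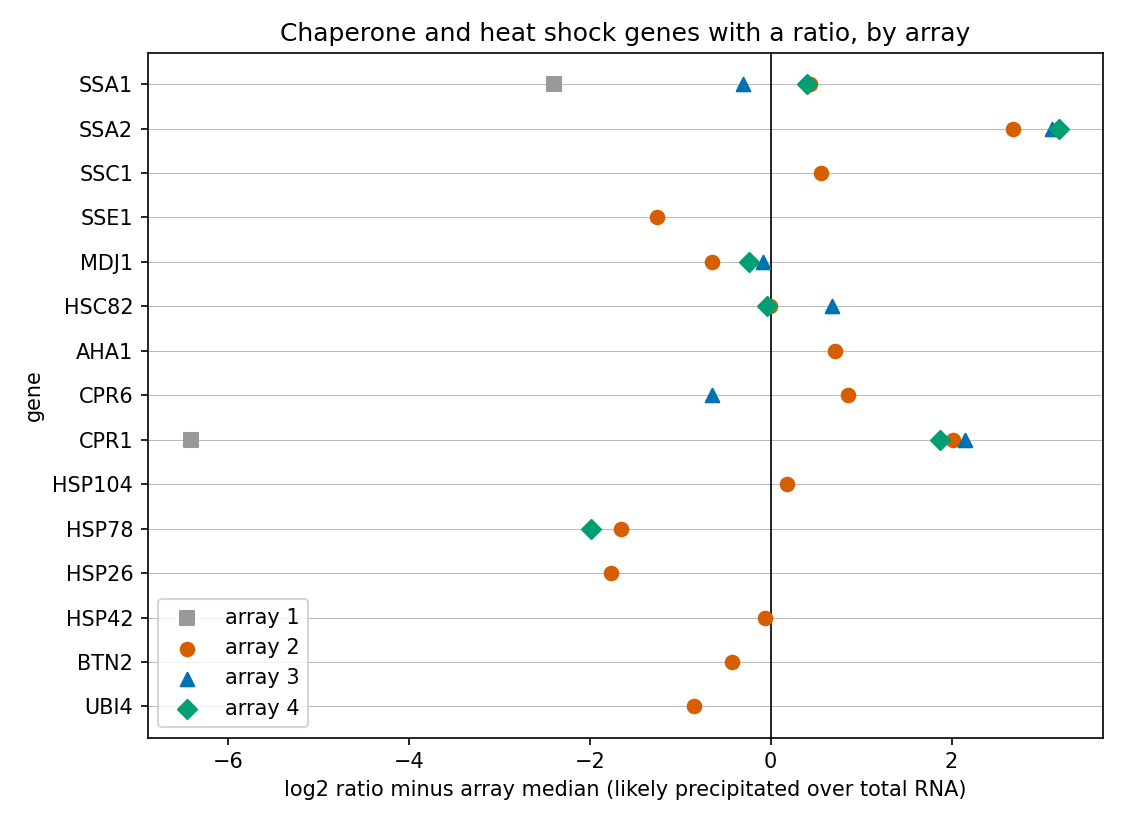
Centred log2 ratio (horizontal axis) of the 15 chaperone genes with a ratio, 1 row for each gene and 1 mark for each array. SSA2 lies at 2.68 to 3.19 on arrays 2 to 4, CPR1 at 1.88 to 2.14 on arrays 2 to 4 and at -6.41 on array 1, and 8 genes have only the mark of array 2.

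Further genes were taken from 10 lists of folding, heat shock regulator and ubiquitin genes. Of their 74 genes, 72 had a probe, 24 had a ratio and 6 were tested: 2 lay above, 1 below and 3 did not pass. These 3 calls of 6 stand beside the 47.7% called over all features. Of the 3, RPL40A and RPS31 are ubiquitin genes, so JID1 was the only folding gene called. Without centring, or with arrays 3 and 4 turned, none of the 6 passed, as 0 of all 596 features did (limma, 52 and 1 at an unadjusted p under 0.05). Of 18 further J-domain genes 2 were tested. JID1, a mitochondrial J-domain protein, stood at 1.08, 1.61 and 0.85 on arrays 2 to 4, with a mean of 1.18 ± 0.39 (SD, n = 3; limma, adjusted p = 0.0228). Its call ended without array 2, 3 or 4 (adjusted p = 0.0710, 0.0962 and 0.0850), with a term for the channel assignment (0.0558) and centred within blocks (0.0526). Its mean was -0.015 without centring and -0.46 with arrays 3 and 4 turned (adjusted p = 0.994 and 0.995). PAM18, of the mitochondrial import motor, had 0.59 ± 0.94 (SD, n = 3) and did not pass (limma, adjusted p = 0.302).

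CCT7, a subunit of the cytosolic chaperonin, had -0.39, 2.78 and 1.13 on arrays 2 to 4, with 1 probe each on arrays 3 and 4. It was the 1 gene tested among 14 for the chaperonin and prefoldin. Its mean of 1.18 ± 1.58 (SD, n = 3) did not pass (limma, adjusted p = 0.204). ERO1, which feeds oxidising power to disulphide formation in the ER, was the 1 tested of 7 and had -0.77 ± 0.68 (SD, n = 3; adjusted p = 0.125). The fit with at least 2 arrays held 4 further genes of these lists, each with 2 ratios. CNE1, the calnexin of yeast, was picked out after its values were seen. It stood at -1.94 and -3.38 on arrays 3 and 4, each from 1 probe. Its mean was -2.66 ± 1.02 (SD, n = 2, limma, adjusted p = 0.0301), in a fit where 15.9% of the 938 features were called below the median. Both arrays held the precipitated RNA in channel 1, so a dye effect of its spots cannot be told apart. The side of the median on which CNE1 lay also rests on how these columns were turned. The Hsp90 cochaperone genes CNS1 and SBA1, at -1.09 ± 0.28 and 0.01 ± 0.58, and the J-domain gene HLJ1, at -0.18 ± 0.57 (SD, n = 2), did not pass (limma, adjusted p = 0.114, 0.992 and 0.764).

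Beside UBI4, ubiquitin is also made as a fusion to ribosomal proteins, and 2 of these 3 genes were tested. RPL40A had 2.24 ± 0.54 (SD, n = 4; limma, adjusted p = 0.00444) and RPS31 lay below the median at -1.13 ± 0.52 (SD, n = 3; adjusted p = 0.0357). The call of RPS31 ended without array 3 or 4 (adjusted p = 0.135 and 0.148), with a term for the channel assignment (0.0596), with features on at least 2 arrays (0.0620) and centred within blocks (0.0754). None had a ratio on at least 3 arrays of 9 further Hsp90 cochaperone genes (3 with a ratio), 10 further peptidyl-prolyl isomerase genes (8 with a probe, 5 with a ratio) or 3 genes of the nascent polypeptide-associated complex (2 with a ratio). The 3 further Hsp70 genes, 3 further exchange factor genes and 4 regulator genes, HSF1 among them, had no ratio on any array.

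**Figure D4:**
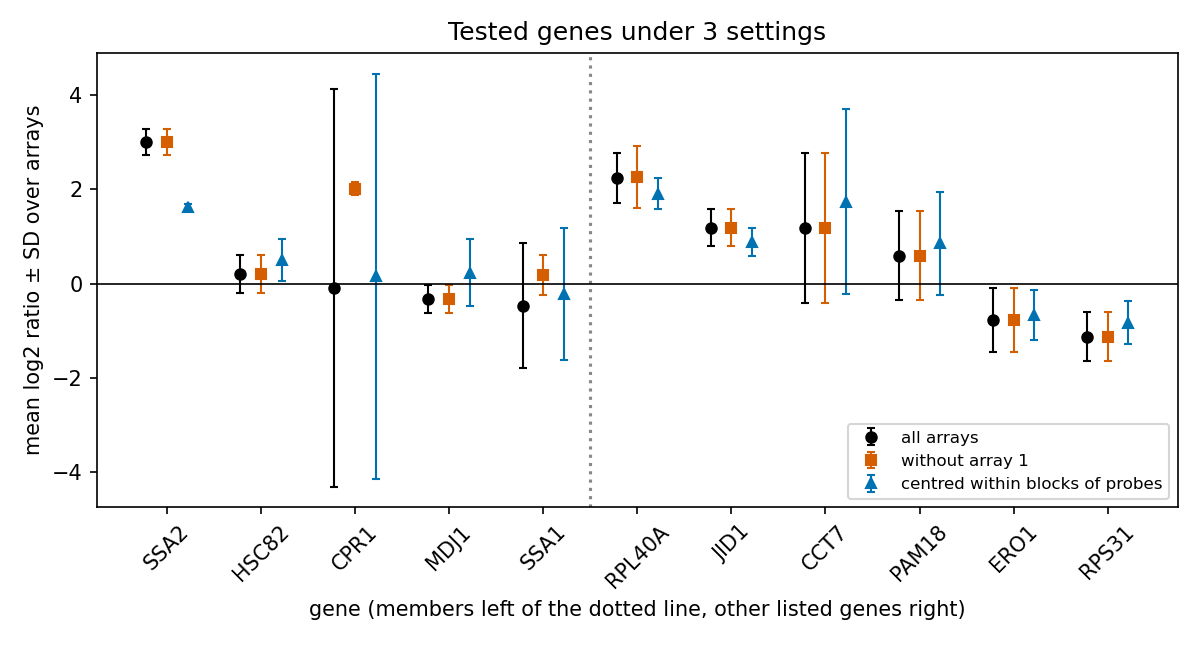
Mean log2 ratio with the SD over arrays (bars) of the 5 chaperone genes and 6 other listed genes tested, with all arrays, without array 1, and centred within blocks of 400 probe numbers. SSA2 lies above 0 in all 3 settings, at 2.99, 2.99 and 1.63, whereas CPR1 lies at -0.09, 2.01 and 0.16.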

How the data were processed

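The authors deposited a log10 ratio for each probe and array. The base of 10 was read from the numbers: 27.3% match the log10 of a quotient of whole numbers (denominator up to 1000) within 1e-08. Other bases and the rate of such matches by chance were not tested. Nothing in the labels describes the background correction, the normalization or the filter behind missing ratios. The array medians of the deposited values were -0.960, 0.462, -1.12 and -0.519, and 845, 2467, 973 and 1112 of 12800 probes had a ratio on arrays 1 to 4, numbered in accession order. The number of arrays limits the precision.

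Gene names came from the platform annotation kept by GEO, which may be out of date: 11138 had 1 gene symbol, 0 several and 1662 none, and 11128 identifiers matched the gene table of assembly R64. Repeated rows (2) and probes of a gene were averaged. After conversion to log2, the median over the 498 named genes with a ratio on at least 3 arrays was subtracted from each array, which removed log2 -1.71, 1.74, -3.71 and -1.61. These genes and the 98 unnamed probes with as many ratios were fitted together with lmFit and eBayes of limma 3.58.1 (R 4.3.3), two-sided, with Benjamini-Hochberg adjustment over all 596 and a threshold of 0.05. Block centring subtracted, per array, the median of all probes with a ratio in the same 400 probe numbers. The fit was tested on simulated ratios. Python 3.11.15 with pandas 2.3.3 and matplotlib 3.10.9 and statmod 1.5.0 were also used.

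All 33 genes were named, and from the other lists the tested genes, at most 3 a list; CNE1, CNS1, SBA1 and HLJ1 were added after their values were seen. The genes and lists were chosen with earlier results of these data known. Arrays 1 and 3 shared a code in their titles, as did arrays 2 and 4, and its meaning is not stated. Results on arrays 2 to 4 thus include a pair with the same code. Alternatives varied the centring, scaling, missing-value limit, channel term, title code as a random block, probes, direction and variance trend, and left out each array.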

Additional observations from a re-analysis of the deposited data

Results flagged for a closer look

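For CPR1 array 1 stood apart from the other 3 arrays: its distance to the nearest of them was 0.969 of the whole range of the 4 values, above Dixon's critical value for 4 values. The centred log2 ratios were -6.41 on array 1 and 2.02, 2.14 and 1.88 on arrays 2 to 4. Of the other listed genes with 4 values, SSA1 had 0.736 and RPL40A 0.577. Chance gives such a flag in about 1 of 20 groups.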

How the results depend on the processing

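With all 4 arrays as deposited and centred, 284 features and 1 chaperone gene (SSA2) were called. Without centring 0 features were called by limma (52 at an unadjusted p under 0.05) and 0 chaperone genes, and SSA2 stood at 1.79, RPL40A at 0.91, HSC82 at -0.99, CCT7 at -0.022, JID1 at -0.015 and PAM18 at -0.61. With arrays 3 and 4 turned 0 features (1 at an unadjusted p under 0.05) and 0 chaperone genes were called, SSA2 stood at -1.21, HSC82 at -0.22, CCT7 at -1.43, ERO1 at 0.76, JID1 at -0.46, PAM18 at -0.41, RPL40A at -0.39 and RPS31 at 0.71, and SSA2 minus SSA1 at -1.32. Features on all 4 arrays gave 21 calls among 80, and 0 chaperone genes, since SSA2 was not among them. Features on at least 2 arrays added HSP78 (2 chaperone genes). Probes kept apart also gave 2, with CPR1 at 2.26 on its first probe and -0.28 on its second. Centred within blocks CPR1 stood at 0.16 and MDJ1 at 0.23, 206 features were called, and SSA2 minus SSA1 was 1.16; with the lower SSA2 and the higher SSA1 probe it was 2.03. With arrays scaled CPR1 stood at 0.32. Centred over all 596 features, unnamed probes included, 275 were called.

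Leaving out 1 array gave 86 (without array 4) to 342 features (without array 1), 1 to 2 chaperone genes, 2.89 to 3.15 for SSA2, -0.84 to 2.01 for CPR1, -0.77 to 0.18 for SSA1, -0.023 to 0.33 for HSC82 and 2.51 to 3.10 for SSA2 minus SSA1. Without array 3, 171 features were called. Apart from no centring and turned arrays, SSA2 had means of 1.63 to 3.61 and adjusted p from 0.000779 to 0.0363 over 13 alternatives with limma. SSA1, MDJ1 and HSC82 did not pass under any alternative that gave them a value. The causes were not tested. SSA minus SSB has no value under any setting. The arrays form 1 group, so no pairing between groups was possible.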
